A study of Drosophila melanogaster with 5 samples.

Results

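The 9 genes described here belong to the integrated stress response of Drosophila melanogaster. They are PEK and Gcn2, which encode the kinases of the initiation factor eIF2, crc, the fly ATF4, the phosphatase regulator PPP1R15, and the response genes Thor, trbl, AsnS, Nmdmc and Shmt. They were named as a list by their FlyBase symbols, and each symbol matched a single identifier among the 17735 genes counted. Poly(A) RNA-seq had been performed on whole 3rd instar larvae pooled by weight, with 2 libraries of y1w1118 and 3 of CG1603attP. The y1w1118 line, which carries the y1 and w1118 alleles, served as wild type, and the mutants carry both alleles too. In CG1603attP most of CG1603, the gene of the architectural zinc finger protein Mzfp1, is replaced by attP, a landing site for transgenes, together with the eye marker 3P3:dsRed between loxP sites. The mutant larvae were homozygotes from a cross of CG1603attP/CyO GFP parents, and such homozygotes die in the second or the third instar. The age of the larvae within the instar and their sex are not given in the sources used here, and all mutant larvae came from 1 deletion line.

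In the integrated stress response, kinases that sense different stresses phosphorylate the alpha subunit of eIF2. This lowers translation in general and raises translation of a few messages with upstream open reading frames, among them that of ATF4. ATF4 is a bZIP transcription factor whose known targets include genes of amino acid synthesis, one-carbon metabolism and tRNA charging, and regulators that damp the response. Poly(A) RNA-seq reads the messages of these genes and gives neither the phosphorylation of eIF2 nor the amount of any protein.

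The unit CPM is the number of reads of a gene in 1000000 reads of its library after TMM scaling, and the log2 ratio is edgeR's log2 fold change of CG1603attP over y1w1118. Between 9044930 and 14514277 reads per library were counted on genes other than ribosomal RNA genes, and 1 read was at most 0.116 CPM. All 9 genes passed the filter on low counts, the lowest count being 104 reads, so none was limited by detection. CG1603 itself had 124 and 102 reads in y1w1118 and 0, 0 and 3 in CG1603attP, so that the deletion was visible in every mutant library. CG1603attP replicate 1 and y1w1118 replicate 2 stood apart in moult-linked cuticle genes: the summed level of 8 Twdl and Osi genes was between 14.7 and 929 CPM in y1w1118 and between 18.5 and 1706 CPM in CG1603attP. None of these 8 genes was called in either direction by edgeR, at an unadjusted p under 0.05 or by DESeq2, and calls lost without both of these libraries are given with the results. Markers of some tissues moved with the genotype, where 14.6% of all tested genes were called higher and 15.7% lower. All 9 muscle genes were lower, with summed levels of 77440 to 84000 CPM in y1w1118 and 19340 to 25510 CPM in CG1603attP, and 6 of 8 midgut enzyme genes were higher, with sums of 1337 to 1439 CPM and 3260 to 4461 CPM. Of 4 haemocyte genes 2 were lower, with sums of 832 to 848 CPM and 380 to 424 CPM. Of 4 fat body genes tested out of 7 listed, 1 was lower and 3 were not called. Those 3 had at most 9.13 CPM in any library, so they say little about this tissue. The lower one was apolpp of the lipoprotein (log2 ratio -2.31, adjusted p = 0.00228, edgeR). Sums over the fat body list were 12870 to 14520 CPM and 1808 to 3666 CPM, nearly all of them from apolpp. Of 5 neuronal genes 1 was higher and of 7 imaginal disc genes 2 were higher, the disc list having a median log2 ratio of -0.17. No marker was at 0 in every library. In whole larvae fewer cells of a type and less RNA per cell cannot be told apart, and the part of these shifts in the results below was not tested.

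The count of crc covers only some of its transcripts. crc (FBgn0000370) lies on the plus strand of 2L from 21310866 to 21319527 in dm6 coordinates and has 4 annotated transcripts. A second protein-coding gene, CG46314 (FBgn0284230; 2L, 21314360 to 21319527, plus strand), has all of its 2515 exon bases within exons of crc. These bases are 73.5% of the crc exons. The counting tool assigned a read to a gene only where it overlapped no other gene, and CG46314 was listed with 0 reads in all 5 libraries. The reads counted for crc can therefore come only from the other 908 bases, the upstream exons of the transcripts FBtr0081512, FBtr0332001 and FBtr0332002. The transcript FBtr0081513, which starts further downstream, has 0 bases outside CG46314 and was not measured. The values of crc below are for the upstream exons only.

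**Figure D1:**
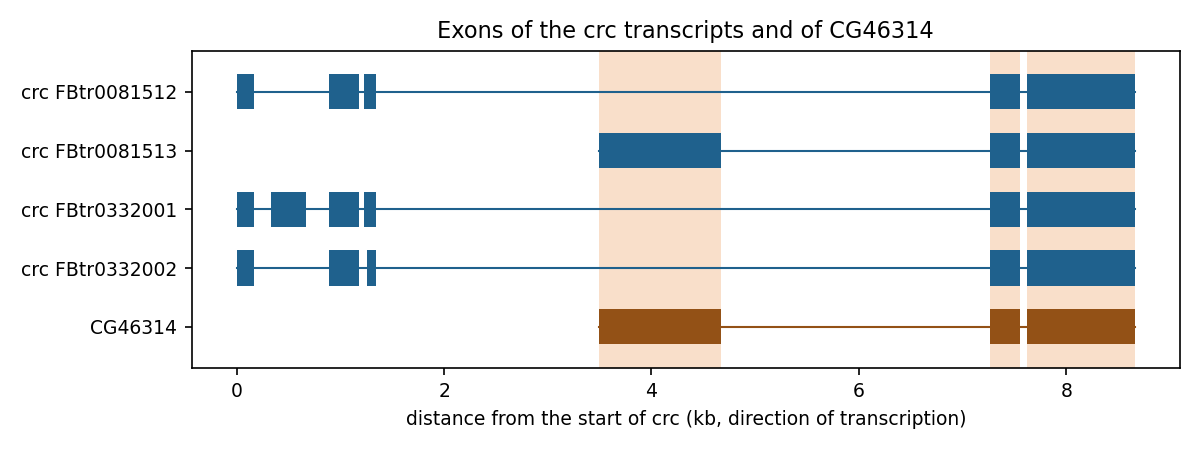
Exons (boxes) of the 4 crc transcripts in blue and of CG46314 in brown, drawn to scale against the distance in kb from the start of crc. The shaded stretches are the 2515 exon bases that both genes share, from which no read was assigned to either gene, and the 908 unshaded bases of crc exons all lie upstream of them.

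Of the 9 genes, 6 were higher in CG1603attP larvae and 0 lower (quasi-likelihood F test of edgeR, Benjamini-Hochberg adjusted over 11045 genes). The share of all tested genes was 14.6% called higher and 15.7% called lower. The 9 genes were chosen with earlier results of these data known. Their counts beside these shares describe the list and are no independent test. At an unadjusted p under 0.05, and with DESeq2, the numbers were likewise 6 higher and 0 lower. The higher genes were AsnS, Nmdmc, PPP1R15, Thor, trbl and PEK, and those not called were Shmt, crc and Gcn2. In 7 of the 9 genes every mutant library lay above every wild-type library, which was the case in 28.9% of all tested genes, and in 0 genes every mutant library lay below, against 30.8% of all. The median log2 ratio was 0.70 for the 9 genes and -0.011 for all genes tested. AsnS, Nmdmc and PPP1R15 were called in each of the 15 alternative analyses. Without both libraries that stood apart, which left 1 wild-type library, 2 mutant libraries and 1 residual degree of freedom, these 3 genes were the ones still called. PEK then had a log2 ratio of 0.51 (adjusted p = 0.313, edgeR), against 0.57 with all libraries. Thor had 0.56 (adjusted p = 0.260) against 0.86, and trbl 0.38 (adjusted p = 0.552) against 0.70. Leaving out y1w1118 replicate 1 or y1w1118 replicate 2 also gave 3 called genes each time.

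**Figure D2:**
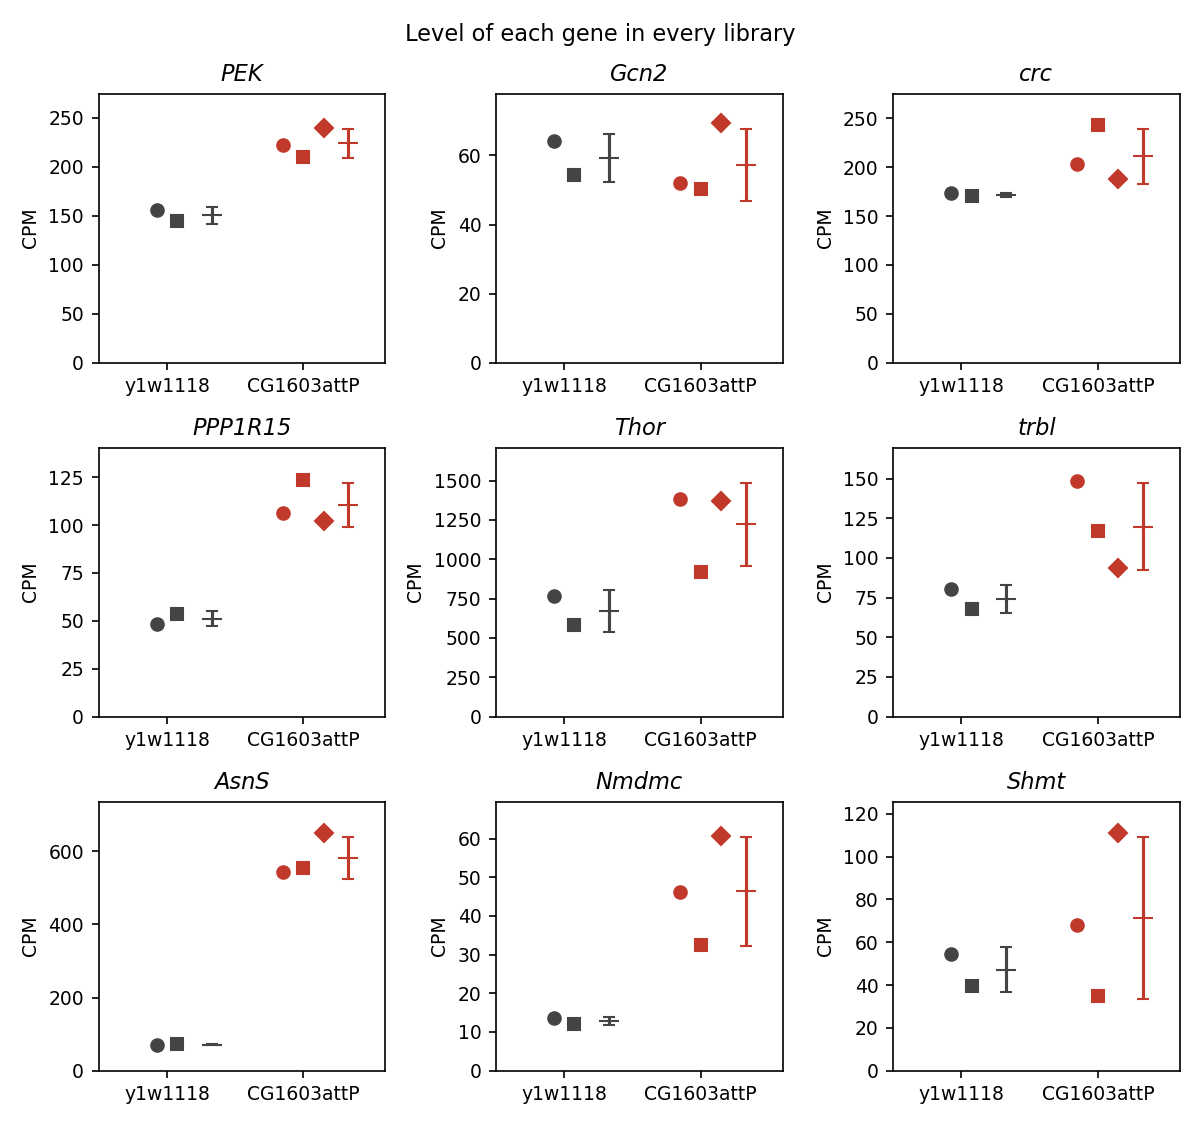
CPM of the 9 genes in the 2 y1w1118 libraries (black) and the 3 CG1603attP libraries (red), with a circle for replicate 1, a square for replicate 2 and a diamond for replicate 3, and the mean with its SD beside the points. The groups are widely separated for AsnS, with at most 71.6 CPM in y1w1118 and at least 544 CPM in CG1603attP, and overlap for Gcn2 and Shmt.

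The eIF2 kinases were examined first. PEK (FBgn0037327; 3R, 5458563 to 5464753, minus strand), the fly PERK, is anchored in the endoplasmic reticulum and responds to misfolded proteins there. Its level was 156 and 144 CPM in y1w1118 replicates 1 and 2 and 222, 209 and 240 CPM in CG1603attP replicates 1, 2 and 3. The mutant libraries were all above the wild-type libraries, and the lowest of them was 1.34 times the highest wild-type library. The mean rose from 150 ± 8.32 CPM (SD, n = 2) to 224 ± 15.1 CPM (SD, n = 3), a log2 ratio of 0.57 ± 0.12 (SE, adjusted p = 0.0116, edgeR). This call was lost without y1w1118 replicate 1 (log2 ratio 0.62, adjusted p = 0.0861) and without y1w1118 replicate 2 (log2 ratio 0.50, adjusted p = 0.134).

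Gcn2 (FBgn0019990; 3R, 31395660 to 31402013, plus strand) encodes the kinase that senses uncharged tRNA when amino acids are scarce. It had 64.1 and 54.4 CPM in y1w1118 replicates 1 and 2 and 52.1, 50.3 and 69.4 CPM in CG1603attP replicates 1, 2 and 3, so that the genotypes overlapped. The log2 ratio was -0.050 (95% interval -0.52 to 0.42, adjusted p = 0.874, edgeR), and its sign turned when libraries were scaled by size only (0.091). Of the exon bases of Gcn2, 7.91% overlap PNPase on the opposite strand, and the kit does not keep the strand.

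The factor crc, named for the cryptocephal phenotype of its mutants, encodes ATF4. Its upstream exons had 173 and 171 CPM in y1w1118 replicates 1 and 2 and 203, 243 and 188 CPM in CG1603attP replicates 1, 2 and 3. The mutant libraries were above the wild-type libraries, but the lowest of them exceeded the highest wild-type library only 1.08 times. The difference did not pass the test, with a log2 ratio of 0.30 (95% interval -0.037 to 0.63, adjusted p = 0.159, edgeR), and it was called in 0 of the 15 alternatives.

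PPP1R15 (FBgn0034948; 2R, 23975599 to 23977255, minus strand) is the fly counterpart of mammalian GADD34, which brings protein phosphatase 1 to eIF2 and so ends the response. It had 48.5 and 53.8 CPM in y1w1118 replicates 1 and 2 against 106, 124 and 102 CPM in CG1603attP replicates 1, 2 and 3. Each mutant library was at least 1.89 times every wild-type library. The mean rose from 51.2 ± 3.77 CPM (SD, n = 2) to 111 ± 11.5 CPM (SD, n = 3), with a log2 ratio of 1.11 ± 0.15 (SE, adjusted p = 0.00256, edgeR).

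Thor (FBgn0261560; 2L, 3478434 to 3479612, plus strand) encodes 4E-BP, which binds the cap-binding factor eIF4E and restrains cap-dependent translation. It is a target of crc and also of FOXO. Thor was the most abundant of the 9 messages as counted, also per length, although crc was counted over its upstream exons only. The level of Thor was 766 and 579 CPM in y1w1118 replicates 1 and 2 and 1382, 918 and 1369 CPM in CG1603attP replicates 1, 2 and 3. The genotypes did not overlap, but CG1603attP replicate 2 was closer to y1w1118 replicate 1 than to the other mutant libraries. The mean rose from 673 ± 132 CPM (SD, n = 2) to 1223 ± 264 CPM (SD, n = 3), a log2 ratio of 0.86 ± 0.23 (SE, adjusted p = 0.0300, edgeR). The call was lost without y1w1118 replicate 1 (log2 ratio 1.07, adjusted p = 0.0686), y1w1118 replicate 2 (0.66, adjusted p = 0.202), CG1603attP replicate 1 (0.77, adjusted p = 0.0669) or CG1603attP replicate 3 (0.80, adjusted p = 0.0578).

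trbl (FBgn0028978; 3L, 20396288 to 20401609, minus strand) encodes the Tribbles pseudokinase, and in mammals the related TRIB3 is induced by ATF4. Its level was 80.2 and 67.6 CPM in y1w1118 replicates 1 and 2 and 149, 117 and 93.6 CPM in CG1603attP replicates 1, 2 and 3. All mutant libraries were above the wild-type libraries, CG1603attP replicate 3 by the least. The mean went from 73.9 ± 8.88 CPM (SD, n = 2) to 120 ± 27.7 CPM (SD, n = 3), and the log2 ratio of 0.70 ± 0.21 (SE) lay directly at the threshold (adjusted p = 0.04997, edgeR). The call was lost when ribosomal RNA genes were kept (adjusted p = 0.0509), without y1w1118 replicate 1 (log2 ratio 0.82, adjusted p = 0.151) or 2 (0.57, adjusted p = 0.286), and without CG1603attP replicate 1 (0.52, adjusted p = 0.0883) or 2 (0.74, adjusted p = 0.0892).

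AsnS (FBgn0270926; 3L, 21173118 to 21174973, plus strand), a gene with 1 exon, encodes asparagine synthetase, which makes asparagine from aspartate and glutamine. It had 727 and 617 reads in y1w1118 replicates 1 and 2 and 8152, 7633 and 6125 reads in CG1603attP replicates 1, 2 and 3. These counts corresponded to 71.4 and 71.6 CPM against 544, 554 and 649 CPM. The wild-type libraries nearly coincided, and the lowest mutant library was 7.61 times the higher of them. The mean rose from 71.5 ± 0.152 CPM (SD, n = 2) to 582 ± 57.5 CPM (SD, n = 3), 8.15-fold, with a log2 ratio of 3.03 ± 0.14 (SE, 95% interval 2.70 to 3.36, adjusted p = 0.000151, edgeR). Only 1.62% of the genes tested had a higher log2 ratio.

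Nmdmc (FBgn0010222; 3R, 9042508 to 9050555, minus strand) encodes the mitochondrial NAD-dependent methylenetetrahydrofolate dehydrogenase and cyclohydrolase, the counterpart of mammalian MTHFD2. It was the least abundant of the 9 messages in y1w1118, at 13.5 and 12.1 CPM in replicates 1 and 2, and had 46.1, 32.5 and 60.7 CPM in CG1603attP replicates 1, 2 and 3. The genotypes were separated, the lowest mutant library being 2.40 times the highest wild-type library. The mean rose from 12.8 ± 1.05 CPM (SD, n = 2) to 46.4 ± 14.1 CPM (SD, n = 3), a log2 ratio of 1.86 ± 0.31 (SE, adjusted p = 0.00586, edgeR). 

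Shmt (FBgn0029823; X, 5913067 to 5916797, minus strand) encodes serine hydroxymethyltransferase, which passes the one-carbon unit of serine to folate. It had 54.6 and 39.8 CPM in y1w1118 replicates 1 and 2 and 67.9, 35.1 and 111 CPM in CG1603attP replicates 1, 2 and 3. CG1603attP replicate 2 was below both wild-type libraries and the other mutant libraries were above them. With this spread the log2 ratio of 0.59 did not pass the test (95% interval -0.49 to 1.68, adjusted p = 0.376, edgeR), and an increase as large as that of PPP1R15 was inside the interval. Of the exon bases of Shmt, 4.88% overlap genes on the opposite strand.

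**Figure D3:**
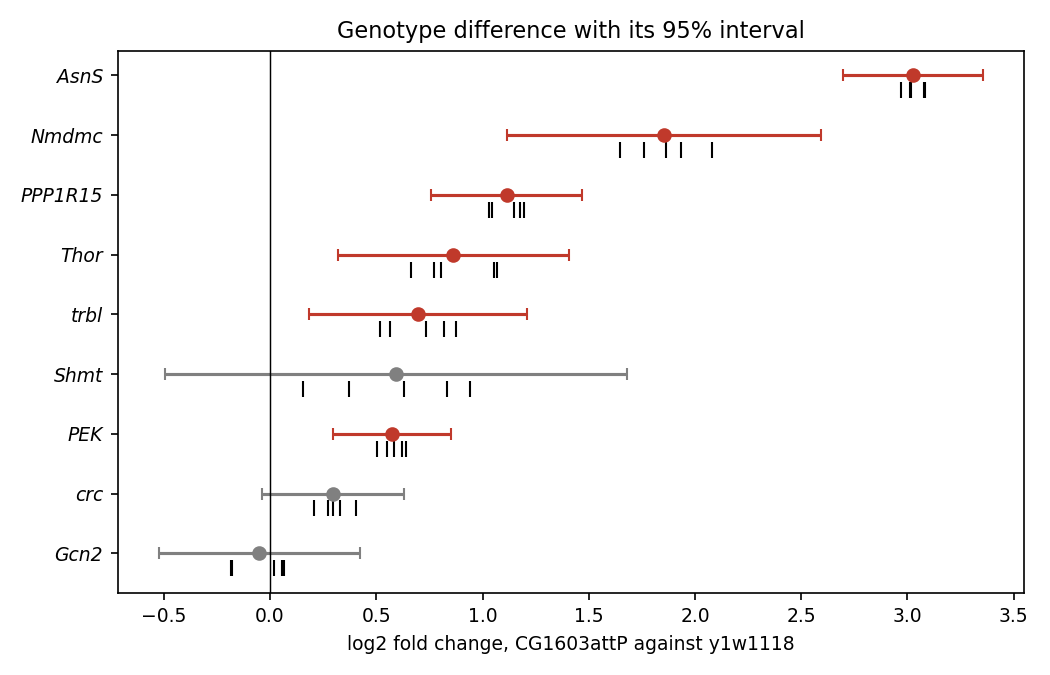
Log2 fold change of each gene, CG1603attP against y1w1118, with its 95% interval from edgeR (red, called higher; grey, not called), and below it as ticks the values with each of the 5 libraries left out in turn. AsnS lies at 3.03 with its ticks close together, and the intervals of Shmt, crc and Gcn2 include 0.

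The genes of the list differed among themselves in size of response. By point estimate the order was AsnS (3.03), Nmdmc (1.86), PPP1R15 (1.11), Thor (0.86), trbl (0.70), Shmt (0.59), PEK (0.57), crc (0.30) and Gcn2 (-0.050) on the log2 scale. The 95% interval of AsnS started at 2.70 and that of Nmdmc ended at 2.60, so these neighbours did not overlap. The intervals of all other neighbours in this order overlapped. Differences between genes were not tested.

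To compare levels between genes, CPM were divided by the kilobases of exon from which reads could be assigned. Per kilobase the order in y1w1118 was Thor at 891, crc (upstream exons) at 189, AsnS at 38.5, PPP1R15 at 32.0, trbl at 31.2, PEK at 30.8, Shmt at 19.7, Gcn2 at 11.2 and Nmdmc at 8.49 CPM per kilobase. The libraries of PPP1R15, trbl and PEK overlapped, so their order was not resolved. In CG1603attP the order was Thor at 1620, AsnS at 314, crc at 232, PPP1R15 at 69.3, trbl at 50.5, PEK at 45.9, Nmdmc at 30.8, Shmt at 29.8 and Gcn2 at 10.8 CPM per kilobase. The order of AsnS and crc in the mutant was not resolved, since the 3 counted crc transcripts contain from 542 to all 908 of the bases. Divided by 542 bases, the mutant mean of crc was 389 CPM per kilobase, above that of AsnS. In the mutant the libraries of trbl overlapped those of PEK, Nmdmc and Shmt, and those of Shmt overlapped PEK and Nmdmc, so the order of these 4 genes was not resolved except that PEK lay above Nmdmc in all libraries.

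Within the mutant the genes did not vary together. CG1603attP replicate 2 was the lowest mutant library for PEK, Gcn2, Thor, Nmdmc and Shmt but the highest for crc and PPP1R15. CG1603attP replicate 3 was the highest for PEK, Gcn2, AsnS, Nmdmc and Shmt and the lowest for crc, PPP1R15 and trbl. The ratio of the highest to the lowest mutant library was 3.16 for Shmt, 1.87 for Nmdmc, 1.59 for trbl and 1.51 for Thor, and between 1.14 and 1.38 for the other genes. The 2 wild-type libraries differed at most 1.37 times, for Shmt. CG1603attP replicate 1, with the high moult-linked genes, was the highest mutant library for Thor and trbl only.

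**Figure D4:**
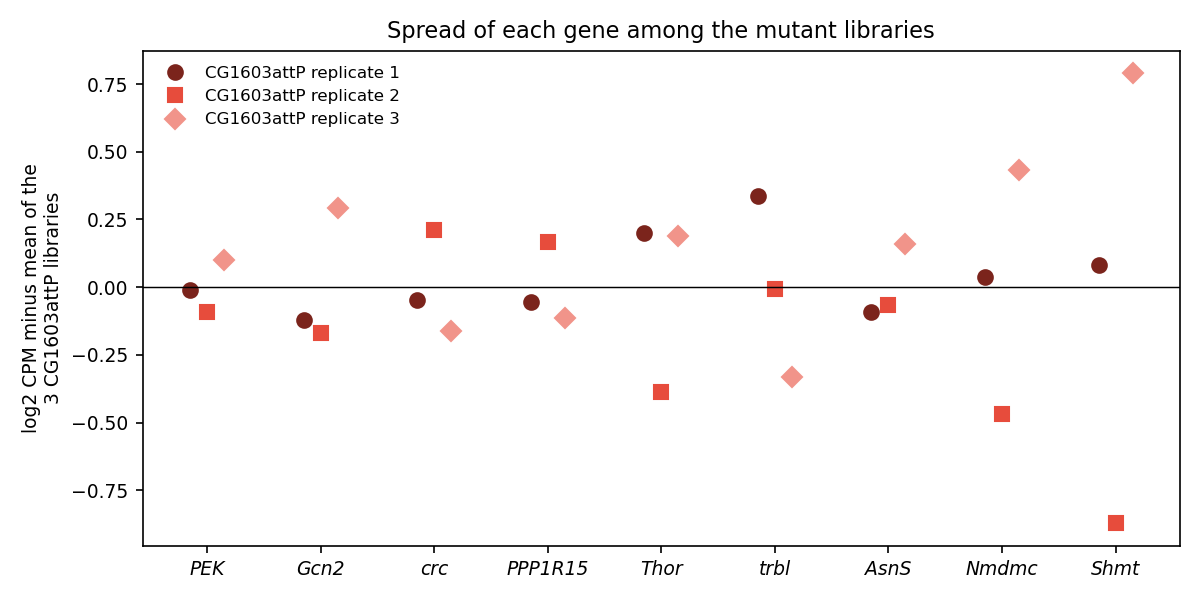
Deviation of each CG1603attP library from the mean log2 CPM of the 3 mutant libraries, for the 9 genes. Shmt and Nmdmc spread most, with replicate 3 high and replicate 2 low, whereas replicate 2 is the highest for crc and PPP1R15.

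The genes whose centred log2 CPM over the 5 libraries lay closest to crc, out of 8733 genes at a mean log2 CPM of 2 or more, were CG5290, Dgk and Nckx30C. Their root mean square differences from crc were 0.022, 0.024 and 0.026 log2 units. None of these genes was called (adjusted p = 0.227 for CG5290, 0.263 for Dgk and 0.141 for Nckx30C, edgeR). Closest to AsnS were Cyp28d1, a cytochrome P450 gene, CG44008 and Alr, named for augmenter of liver regeneration, with differences of 0.095, 0.105 and 0.106 log2 units. All were higher in the mutant, with log2 ratios of 2.91 for Cyp28d1, 2.94 for CG44008 and 3.11 for Alr (adjusted p = 0.00019, 0.000151 and 0.000307, edgeR). Genes picked for closeness to crc or AsnS in these same libraries have nearly the same log2 ratio by choice. Their ratios and calls are therefore no separate result.

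Genes related to the response were followed in 8 further lists with 102 genes, of which 101 had enough reads to be tested. Of these, 26 were higher and 22 lower, with a median log2 ratio of 0.098, against 14.6% higher and 15.7% lower among all genes. The same shares are the background for the counts of each list below. Several of these counts lie near them, and no list was tested as a set. Of eIF2, its exchange factor eIF2B and the factors used to translate crc, 1 of 12 genes was lower and 0 higher (edgeR). At an unadjusted p under 0.05 the counts were 3 lower and 1 higher, and with DESeq2 2 lower and 1 higher. The lower gene was eIF2Bbeta, from 44.3 ± 2.44 CPM (SD, n = 2) to 27.2 ± 4.10 CPM (SD, n = 3) (log2 ratio -0.70, adjusted p = 0.0399, edgeR). The message of the kinase substrate, eIF2alpha, had a log2 ratio of -0.068 (adjusted p = 0.721, edgeR).

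Whereas AsnS and Nmdmc rose, most enzymes around them did not. Of 15 enzymes of serine, glycine, folate and transsulfuration, 7 were lower and 1 higher, with a median log2 ratio of -0.93. CG6287, the fly phosphoglycerate dehydrogenase, which opens serine synthesis, fell from 85.3 ± 17.5 CPM (SD, n = 2) to 19.7 ± 8.11 CPM (SD, n = 3) (log2 ratio -2.12, adjusted p = 0.00531, edgeR). Gnmt, glycine N-methyltransferase, had 278 and 306 CPM in y1w1118 replicates 1 and 2 and 97.2, 83.2 and 57.2 CPM in CG1603attP replicates 1, 2 and 3 (log2 ratio -1.88, adjusted p = 0.00167, edgeR). The gene that rose was Sam-S, which makes S-adenosylmethionine, from 692 ± 74.3 CPM (SD, n = 2) to 1115 ± 125 CPM (SD, n = 3) (log2 ratio 0.69, adjusted p = 0.0138, edgeR).

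Of 8 other amino acid enzymes 6 were lower and 0 higher (edgeR), with 0 higher at an unadjusted p under 0.05 and 0 with DESeq2. The lowest was CG17486, which is predicted to encode an asparagine synthase and is thus related to AsnS. Unlike AsnS, CG17486 is among the genes that the study lists with an Mzfp1 binding site and its motif in a heterochromatic promoter. Whether this bears on its level was not tested. It had 38.8 and 48.6 CPM in y1w1118 replicates 1 and 2 and 2.34, 1.31 and 3.92 CPM in CG1603attP replicates 1, 2 and 3. Thus the mutant libraries of CG17486 were all below and those of AsnS all above wild type, with log2 ratios of -4.13 (adjusted p = 0.00122, edgeR) and 3.03. Gs2, a glutamine synthetase, was also lower, from 1052 ± 60.7 CPM (SD, n = 2) to 449 ± 62.0 CPM (SD, n = 3) (log2 ratio -1.23, adjusted p = 0.00166, edgeR).

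Among 9 amino acid transporters 3 were higher and 3 lower, and the median of the list was -0.12 with TMM and 0.020 with library size only. path, of the SLC36 family of transporters, rose from 243 ± 9.59 CPM (SD, n = 2) to 614 ± 7.54 CPM (SD, n = 3) (log2 ratio 1.33, adjusted p = 0.000503, edgeR) and tadr had a log2 ratio of 1.17 (adjusted p = 0.0402). gb, with a log2 ratio of -2.54 (adjusted p = 0.0155), and slif, the arginine transporter slimfast, with -1.03 (adjusted p = 0.0366), were lower. Of the 20 cytosolic aminoacyl-tRNA synthetases, which charge tRNAs, 8 were higher and 2 lower, with a median of 0.36. AsnRS, which charges tRNA with asparagine, had the highest log2 ratio of the called genes in the list. It rose from 121 ± 6.82 CPM (SD, n = 2) to 432 ± 70.0 CPM (SD, n = 3) (log2 ratio 1.84, adjusted p = 0.000822, edgeR). ThrRS had a log2 ratio of 1.41 (adjusted p = 0.000891), and the lower genes were beta-PheRS (-1.44, adjusted p = 0.00532) and ArgRS (-0.87, adjusted p = 0.0111).

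Of 14 other genes of the unfolded protein response, 5 were higher and 2 lower. Ire1, the sensor kinase of the endoplasmic reticulum that acts beside PEK, rose from 80.3 ± 13.3 CPM (SD, n = 2) to 188 ± 18.2 CPM (SD, n = 3) (log2 ratio 1.23, adjusted p = 0.00224, edgeR), and Xbp1, the message it splices, had a log2 ratio of 0.98 (adjusted p = 0.0113). The other higher genes were Herp (0.79, adjusted p = 0.00576, edgeR), Der-1 (0.78, adjusted p = 0.0494) and Gp93 (0.40, adjusted p = 0.0322). The chaperone gene Hsc70-3, the fly BiP, did not pass the test (0.27, adjusted p = 0.139, edgeR). Its mutant libraries nevertheless all lay above its wild-type libraries. ERp60 (-0.92, adjusted p = 0.00224) and Calr (-0.50, adjusted p = 0.017), which encode a disulfide isomerase and calreticulin, were lower.

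Of 12 other stress and bZIP genes 4 were higher and 1 lower. Pepck2, a phosphoenolpyruvate carboxykinase gene, had 8.25 and 4.52 CPM in y1w1118 replicates 1 and 2 and 87.7, 73.4 and 89.9 CPM in CG1603attP replicates 1, 2 and 3 (log2 ratio 3.70, adjusted p = 0.000591, edgeR). ImpL2, a secreted antagonist of insulin-like peptides, rose from 75.5 ± 13.5 CPM (SD, n = 2) to 422 ± 94.0 CPM (SD, n = 3) (log2 ratio 2.48, adjusted p = 0.00083, edgeR), whereas Ldh was lower (-0.63, adjusted p = 0.0173). Thor is also a target of FOXO and of growth signalling, and 11 genes of that kind were examined. Of these, 5 were higher and 0 lower (edgeR), with 0 lower at an unadjusted p under 0.05 and 0 with DESeq2. Among all tested genes 14.6% were higher and 15.7% lower. Whether the 11 genes bear on the level of Thor was not tested. Lip4, a lipase gene, rose from 14.5 ± 0.928 CPM (SD, n = 2) to 54.9 ± 2.70 CPM (SD, n = 3) (log2 ratio 1.92, adjusted p = 0.000921, edgeR), tobi had a log2 ratio of 1.47 (adjusted p = 0.0448), and foxo itself one of -0.074 (adjusted p = 0.821).

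**Figure D5:**
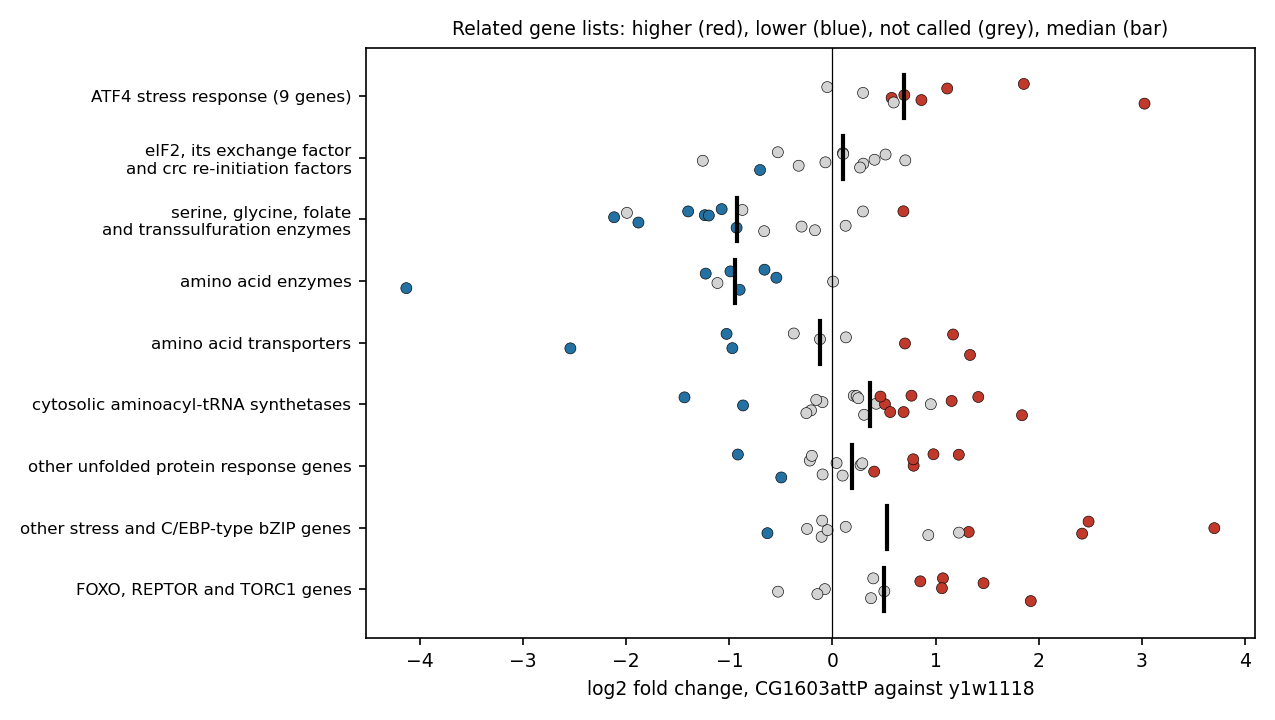
Log2 fold change, CG1603attP against y1w1118, of the 9 genes and of the 101 tested genes of the 8 related lists, 1 point per gene, with the median of each list as a bar. The medians run from -0.95 for the amino acid enzymes and -0.93 for the serine, glycine, folate and transsulfuration enzymes to 0.70 for the 9 genes.

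The related genes named by rule in these lists, 23 in all, kept their direction with each library left out in turn. They had been chosen among called genes whose libraries did not overlap, so the kept direction largely follows from that choice. Of the 23, 13 were called each time. The other 10 lost the call without 1 library or another, and the highest adjusted p with a library left out was 0.22 for eIF2Bbeta, 0.129 for Sam-S, 0.0837 for gb, 0.176 for slif, 0.237 for tadr, 0.117 for ArgRS, 0.168 for Calr, 0.0985 for Xbp1, 0.144 for Ldh and 0.209 for tobi. The number still called was 15 without y1w1118 replicate 1, 14 without y1w1118 replicate 2, and 20, 21 and 19 without CG1603attP replicates 1, 2 and 3. Without both libraries that stood apart 17 of the 23 were called, and the adjusted p was then 0.440 for eIF2Bbeta, 0.116 for Sam-S, 0.369 for tadr, 0.243 for ArgRS, 0.167 for Calr and 0.141 for Xbp1.

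Thor is among the genes that the study lists with an Mzfp1 binding site and its motif in a euchromatic promoter, and crc among those with a site but no motif. AsnS, Nmdmc, PPP1R15, trbl, PEK, Gcn2 and Shmt are in none of these lists, which rest on ChIP-seq and not on the larval RNA. Of the 102 related genes 9 are in them, CG17486 among these. The share of all counted genes in these lists is not given here, so neither number is read as many or few. The paper gives the lists with its ChIP-seq of embryos and reports better detection of Mzfp1 in adult flies. Absence from the lists therefore does not show that a promoter is unbound in larvae.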

How the data were processed

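Raw counts were deposited by the authors, 1 file per library, without normalization. According to the paper, reads were trimmed, aligned to dm6 with STAR and counted with GeneCounts; their versions and the gene annotation are not given in the sources used here. The unstranded column was used. Summary lines (unmapped, multimapping, no feature and ambiguous reads, the last 3.28% to 6.26% of a library) and 138 ribosomal RNA genes were left out. The 9 genes, the related lists and the markers were chosen with earlier results of these data known. List symbols were matched to identifiers, and symbols without a unique match are not analysed here. Positions, exons and overlaps came from the Ensembl annotation in dm6 coordinates, restricted to counted genes. Promoter sequences were not used here.

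The fit used R 4.3.3 and edgeR 4.0.16: filterByExpr (minimum count 10, minimum total 15), TMM factors, then estimateDisp, glmQLFit (legacy = TRUE) and glmQLFTest. Genes were called at a Benjamini-Hochberg adjusted p under 0.05 over 11045 genes, which are the functions and the threshold of the paper. Standard errors were taken as the absolute log2 ratio over the root of the F statistic, and the 95% interval uses the t quantile with the fit's degrees of freedom. The fit was also run on simulated counts, drawn with the same dispersion for all genes and with no library standing apart. That run therefore says little about the calls given here. Replicates are biological according to the paper, and each pair differed beyond sampling noise (chi-square at least 19.1 times its degrees of freedom). With 2 wild-type libraries their spread rests on 1 difference. Related genes were named by rule: in each list, the 2 lowest and 2 highest called genes whose libraries did not overlap. The genes eIF2alpha, Hsc70-3, Herp, Der-1, Gp93, foxo and apolpp were named after their values were seen. The 15 alternatives were the current quasi-likelihood form, a robust fit, DESeq2 1.42.0, RLE factors, library size only, 2 other filters (none, and 1 CPM in 2 libraries), ribosomal RNA genes kept, each library left out, the 2 libraries that stood apart left out, and the replicate number as a block.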

Additional observations from a re-analysis of the deposited data

How the results depend on the processing

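In each of the 15 alternatives 0 of the 9 genes were called lower. With 1 library left out, the 9 genes had 3 to 5 called higher, the related genes 10 to 31 higher and 11 to 22 lower, and all genes 596 to 1738 higher and 796 to 1802 lower. Leaving out a wild-type library gave the smallest of these numbers, and it leaves 1 library in that genotype, whose spread is then assumed to be that of the mutant. Without both libraries that stood apart 3 of the 9 genes, 11 related genes and 607 of all genes were higher, and 992 of all genes were lower. Of the log2 ratios of the 9 genes over the 15 alternatives, 117 kept direction and call, 14 lost the call (PEK, Thor and trbl) and 4 turned sign, all of Gcn2: 0.091 with library size only, and 0.064, 0.018 and 0.055 without y1w1118 replicate 1, CG1603attP replicate 1 and CG1603attP replicate 2. Over all 5 single libraries left out, Gcn2 ranged from -0.18 to 0.064. Library size only raised the median log2 ratio of all genes by 0.144 and moved the calls to 2080 higher and 1424 lower (59.4% higher, against 48.3%), and the median of the amino acid transporters turned from -0.12 to 0.020. The replicate block gave 6 of the 9 genes, 21 related genes and 1393 of all genes higher. The numbers did not pair the libraries: deviations of y1w1118 and CG1603attP replicate 1 had r = -0.30 and those of both replicates 2 r = -0.15 across 10278 genes. The promoter motif description was not run. Counts on the scale of the 9 genes (104 reads or more) set no detection limit, whereas the number of libraries limits small changes, such as those of crc and Gcn2.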
